A study of Mus musculus with 6 samples.

Results

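Among the Ago-bound short RNAs of the mouse brain, 470 of 65087 unique sequences carried a 6mer seed made only of A and U. They were taken by 1 rule, namely every sequence above 0 in at least 1 of the 6 samples whose deposited seed held no G and no C. RNAs bound to the RNA-induced silencing complex (RISC), termed R-sRNAs, had been recovered from brain lysates with a GW182-derived peptide that binds the Ago proteins. The WT group was 3 control mice and the Tau tg group was 3 mice that carried a cDNA for a human tau fragment, tau45-230, under the Thy 1.2 promoter, which is active in neurons. All 6 were males of 3 months on a C57BL/6J background, no mouse was treated, and each sample was 1 animal by the study's methods. The labels named the hippocampus as the tissue, while their protocol field named cortex and hippocampus together. The comparison asked whether the seeds held in RISC differed in the Tau tg brain. The deposited seed matched read positions 2 to 7 in 100% of the rows, so the label held for every member.

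The seed is the stretch near the 5′ end of a short RNA with which an Ago protein finds its target mRNAs. When that stretch is toxic, short RNAs loaded into RISC can kill cells through targets that the cells need for survival, a form of cell death called death induced by survival gene elimination (DISE). The 6mer seed viability scores this property as the percentage of cells left alive by a short RNA that carries the seed, which the authors averaged over 3 murine cell lines, so that a low value marks a toxic seed. Toxic seeds are typically rich in G, and A/U-only seeds stand at the other end of that scale. A/U pairs are also the weakest pairs a seed can form.

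The reads that carried the group are shown first. Below are the most abundant reads of the 8 miRNAs that had an A/U-only seed in at least 50% of their RPM, in the order of their mean level, with capitals for the 6mer seed.
miR-369-3p: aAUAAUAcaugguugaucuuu
miR-126a-5p: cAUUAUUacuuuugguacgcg
miR-410-3p: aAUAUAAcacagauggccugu
miR-374b-5p: aUAUAAUacaaccugcuaagu
miR-340-5p: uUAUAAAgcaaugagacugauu
miR-344d-3p: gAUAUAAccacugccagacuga
miR-590-3p: uAAUUUUauguauaagcuagu
miR-32-3p: cAAUUUAgugugugugauaca
miR-410-3p and miR-344d-3p shared the seed AUAUAA and no other pair in this list shared one. The bases after the seed were mixed in each of these reads.

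A second set shows forms with a moved 5′ end or an added 3′ base, which return in the results, again with capitals for the 6mer seed.
miR-369-3p, 5′ end longer by 1 base: gAAUAAUacaugguugaucuuu
miR-126a-5p, 5′ end shorter by 1 base: aUUAUUAcuuuugguacgcg
miR-126a-5p, 3′ end with an added U: cAUUAUUacuuuugguacgcgu
miR-410-3p, 3′ end with an added A: aAUAUAAcacagauggccugua
miR-190a-3p, shifted form: cUAUAUAucaagcauauuccu
The longer miR-369-3p form moved the seed from AUAAUA to AAUAAU, and the shorter miR-126a-5p form moved it from AUUAUU to UUAUUA, so both stayed A/U-only.

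The neuronal miRNAs miR-124-3p and miR-9-5p were abundant in every sample, at 47769 to 90279 RPM and 29427 to 48005 RPM, and no read was used to check the transgene. The samples were of unequal depth. Reads recovered from the RPM values ranged from 998248 in WT 3 to 6879551 in Tau tg 1, and the members seen per sample numbered 146 in Tau tg 2, the fewest, and 269 in Tau tg 1, the most. A sequence with only 3 reads would be at 0.427 RPM in the deepest sample, Tau tg 1, but at 2.75 RPM in WT 3, and values near these levels are imprecise.

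A/U-only seeds were held by a small share of the R-sRNAs in every mouse. Their share of all RPM was 0.684%, 0.795% and 0.766% in WT 1, 2 and 3. In Tau tg 1, 2 and 3 it was 0.729%, 0.713% and 0.629%. The 95% Wilson intervals of these shares, which cover counting error only, reached no more than 0.0171 percentage points to either side. The means were 0.748% ± 0.0575 (SD, n = 3) in WT, against 0.690% ± 0.0538 (SD, n = 3) in Tau tg, and the groups overlapped. The change of -0.058 percentage points had a two-sided p of 0.3 in an exact permutation test, adjusted to 0.6 for the 6 summary measures, and 3 mice against 3 cannot give a p below 0.1. Its size depended on single samples, from -0.090 without WT 1 to -0.027 without Tau tg 3, and it was -0.033 with the authors' full RPM total as the denominator in place of the sum of the listed reads. A/U-only seeds are 64 of the 4096 possible 6mers, or 1.56%, so the mean share of the reads was 0.460 times the share of the seeds.

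Seeds with a single G or C stood even lower against their number. Counting the G and C letters of the seed, seeds with 1 such letter made up 384 of the 4096 and held 1.57% of the RPM on average, which was 0.167 times their share of the seeds. Seeds with 3 held 41.7% of the RPM, or 1.33 times their share, and seeds with 6 held 0.796%, or 0.509 times. The reads were concentrated in seeds of mixed composition, and both extremes held few of them.

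No A/U-only seed had a low viability. A deposited viability was found for 62 of the 64 seeds, and it ran from 65.0 to 101% with a median of 83.6%. The other 4026 seeds had a median of 63.6%, and 30.9% of them fell under 50%. The median fell with each further G or C, to 78.8% with 1 such letter, 62.3% with 3 and 34.6% with 6. Within the A/U-only seeds the median had no steady order with the number of A. It was 81.8% for seeds with 1 A, 80.8% with 2, 83.7% with 3, 83.1% with 4 and 85.9% with 5. The homopolymer seeds UUUUUU at 101% and AAAAAA at 98.9% were the highest of the A/U-only seeds, followed by AUUUAA at 97.3%. UAUUUU at 65.0%, UAUAUU at 66.3% and AUAUAU at 68.0% were the lowest. These viabilities belong to the seed and not to the mice, and they are given as a description.

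Weighted by RPM, the members' viability overlapped between the groups. The weighted mean was 84.8%, 84.7% and 83.5% in WT 1, 2 and 3, against 85.1%, 84.3% and 83.7% in Tau tg 1, 2 and 3. The means differed by 0.049 percentage points, with a two-sided p of 1 in the exact permutation test. The other reads had a weighted mean viability of 57.7% ± 0.814 (SD, n = 6), and the members 84.4% ± 0.622 (SD, n = 6). That gap follows from the choice of seeds and was not tested. Among the detected A/U-only seeds, 19 had a viability under 80%, and they held 42.0% of the members' RPM.

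A few seeds held nearly all of the group. Of the 64 seeds 61 were detected, 20 of them in all 6 samples and 6 in 1 sample. Another 3 seeds, AAUUAU as well as AUAAAU together with UUUUAA, were seen in none, in a table from which the authors had removed rare reads. The 3 most abundant seeds, led by miR-369-3p, miR-126a-5p and miR-410-3p, held 81.6% of the members' mean RPM, the first 5 held 91.7% and the first 10 held 96.1%. The level of 6 seeds was at least 100 RPM on average, and 42 stayed under 10 RPM.

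AUAAUA, with a viability of 77.1%, was the most abundant of them at a mean of 1936 RPM. miR-369-3p made up 98.9% of it. Its level was 1491, 2297 and 2348 RPM in WT, against 1771, 1977 and 1731 RPM in Tau tg. WT 1 was the lowest sample, and all 3 Tau tg samples lay between it and the other WT samples.

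AUUAUU, with a viability of 87.0%, came next at a mean of 1904 RPM, of which miR-126a-5p made up 98.5%. It was at 2077, 1758 and 1937 RPM in WT, against 2122, 1721 and 1806 RPM in Tau tg. The spread within each group was larger than the difference between the group means, 1924 and 1883 RPM.

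AUAUAA, with a viability of 94.3%, followed at 1756 RPM and was fed by 2 miRNAs, with 84.9% from miR-410-3p and nearly all of the rest from miR-344d-3p. It was at 1725, 2156 and 1414 RPM in WT, against 2099, 1852 and 1288 RPM in Tau tg. The lowest and the second highest of the 6 values were both in Tau tg, so the groups overlapped. These 3 leading seeds differed from each other by less than the spread between samples, so their order is not settled by these samples.

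UAUAAU at 393 RPM and UAUAAA at 301 RPM followed, led by miR-374b-5p and miR-340-5p. miR-374b-5p made up 82.2% of UAUAAU, the lowest share for a leading miRNA among the first 6 seeds. Much of the remainder was a 22-nt read that the deposited annotation gave to the mir-374 hairpin but to no mature miRNA. It differed from the miR-374b-5p read of the same length at 2 positions and was found in no RefSeq mouse hairpin, and its origin was not determined. It was at 70.7, 53.5 and 43.1 RPM in WT, against 13.5, 36.0 and 12.7 RPM in Tau tg. All 3 Tau tg samples lay below the WT samples, with a log2 fold change of -1.52 ± 0.79 (SE), an unadjusted limma p of 0.055 and an adjusted p of 0.584.

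AAUAAU at 134 RPM was almost wholly the longer form of miR-369-3p, and UUAUUA at 49.3 RPM was almost wholly the shorter form of miR-126a-5p. UAUAUA at 74.8 RPM stood apart, since 85.3% of it was annotated as mRNA. A single 22-nt read accounted for most of it, at 8.90, 31.8 and 64.2 RPM in WT, against 53.4, 51.9 and 87.1 RPM in Tau tg. That read was in no RefSeq miRNA hairpin, and the groups overlapped in WT 3.

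UUAAUA at 23.6 RPM and AUUAAA at 18.0 RPM completed the first 10 and held no read annotated as a miRNA. AUUAAA, of which 40.4% was rRNA-annotated, was at 17.3, 15.6 and 58.7 RPM in WT, against 5.83, 7.53 and 3.27 RPM in Tau tg. It did not pass the test, the log2 fold change being -2.06 ± 1.36 (SE) and the unadjusted limma p 0.132. The 5 least abundant detected seeds were too low to be tested. They were AUUUUA at 0.273 RPM, UAAAUU at 0.403 RPM, AUAAAA at 0.546 RPM, AAAAUU at 0.842 RPM and UUUAUA at 0.859 RPM.

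Of the 61 seeds 14 were mostly miRNA reads and 34 had no miRNA read at all. The latter held 2.80% of the members' RPM between them, so the many A/U-only seeds without a miRNA contributed little.

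Among 6mer seeds, none of 56 A/U-only seeds tested had an unadjusted limma p under 0.05, where 4.31% of all 3987 seeds did. None passed an adjusted limma p of 0.05, which 0.125% of all seeds did. edgeR and DESeq2 on the recovered reads likewise called none at either threshold, with an adjusted p from DESeq2 for 22 of the 56. Over all seeds, 3.56% had an unadjusted p under 0.05 in edgeR and 3.99% in DESeq2. After adjustment edgeR called 2 seeds and DESeq2 called 10. Of the 56, 38 had a lower and 18 a higher fitted level in Tau tg. That was 32.1% higher, beside 44.1% of all seeds. The median log2 fold change was -0.33, beside -0.16 over all seeds, and under median-of-ratios scaling these medians were -0.16 and 0.056. The smallest p was 0.079 for UAAAAU, which was at 11.2, 19.7 and 22.0 RPM in WT, against 0, 7.53 and 0 RPM in Tau tg. Among the 20 A/U-only seeds above 0 in all 6 samples, the groups did not overlap for 3, beside 11.0% of all 1966 such seeds. These were AUUAAA and UUAAUU, lower in Tau tg, and UAAUUU, higher.

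The members were more often miRNA reads than the rest of the R-sRNAs. Mature miRNAs made up 93.6%, 92.0% and 91.6% of the members' RPM in WT 1, 2 and 3, against 95.9%, 93.8% and 93.1% in Tau tg 1, 2 and 3. The share among reads with other seeds was 87.1% ± 3.95 (SD, n = 6). Members were higher in 6 of 6 samples, by 6.28 ± 2.59 percentage points (SD), with a two-sided p of 0.031 in an exact sign-flip permutation test, adjusted to 0.039 over 5 measures. That is the smallest p that 6 samples allow. Because few miRNAs held the group, the share describes those miRNAs more than A/U-only seeds as such. Reads annotated as mRNA made up 3.80% of the members' RPM and 6.24% of the rest, lower in 6 of 6 samples with the same exact permutation p of 0.031. Between the groups, the miRNA share of the members was 92.4% ± 1.04 (SD, n = 3) in WT, against 94.3% ± 1.42 (SD, n = 3) for Tau tg, with a p of 0.2 by exact permutation.

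By number of sequences the picture was different. Among the 470 members, 160 were mature miRNA reads, 164 mRNA, 77 miRNA hairpin reads with no mature name, 38 had no match, 14 were rRNA, 11 tRNA, 4 piRNA and 2 sn or snoRNA. Of the 164 mRNA-annotated members 133 were seen in 1 sample only. Over all members, 246 were seen in 1 sample and held 3.50% of the members' RPM, while the 63 seen in all 6 held 92.9%. Members were 0.722% of all sequences, close to their share of the reads.

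The first base of the members was rarely U. A started 57.4% of the members' RPM, C 29.6%, U 6.72% and G 6.30%. U, the base that Ago proteins are known to hold best at the 5′ end, started 67.9% ± 1.43 (SD, n = 6) of the other reads. Among the members it started 6.67%, 6.05% and 7.63% in WT, against 4.55%, 7.42% and 7.99% in Tau tg. The gap of -61.2 ± 1.91 percentage points (SD) had the same sign in 6 of 6 samples, with a two-sided p of 0.031 in the exact sign-flip permutation test, adjusted to 0.039. Of the leading miRNAs, A was the first base in miR-369-3p, miR-410-3p and miR-374b-5p, C in miR-126a-5p and U in miR-340-5p. Since so few miRNAs held the group, these base shares describe those miRNAs more than A/U-only seeds as such.

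Members were slightly shorter than other reads. Their mean length was 21.1 nt beside 21.5 nt, a difference of -0.39 ± 0.057 nt (SD) that had the same sign in 6 of 6 samples, with a p of 0.031 in the exact sign-flip permutation test, adjusted to 0.039. Reads of 21 nt made up 68.6% of the members' RPM and 24.6% of the rest, whereas reads of 22 nt made up 19.8% and 36.3%. The main reads of miR-369-3p, miR-126a-5p and miR-410-3p all had 21 nt. The length therefore describes those few miRNAs more than A/U-only seeds as such. The shortest members had 15 nt and the longest 27 nt.

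Outside the seed, the A/U content was similar in members and other reads. It was 54.2% ± 0.914 (SD, n = 6) in members and 54.8% ± 0.865 (SD, n = 6) in the rest. It was higher in 2 of 6 samples and lower in 4, and the difference of -0.55 ± 1.63 percentage points (SD) had an exact sign-flip permutation p of 0.438. Between WT and Tau tg, the mean length, the first-base U share and the share of sequences had exact two-sided permutation p-values of 0.3, 0.9 and 0.5.

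RefSeq listed 9 mature mouse miRNAs with an A/U-only seed among 1679 names, or 0.536%, and 6 of the 9 were measured here. That list had no mature entry for miR-126a-5p or miR-590-3p, so it is not the full set of such miRNAs. miR-126b-5p, miR-344e-3p and miR-7116-3p were not listed among the reads. In the deposited annotation 23 miRNAs had at least 1 read with an A/U-only seed, 8 of them in at least 50% of their RPM. The first 6 of these held 92.6% of the members' RPM, and miR-369-3p, miR-126a-5p and miR-410-3p alone held 77.8%, 81.9% and 82.0% in WT 1, 2 and 3, against 81.6%, 77.7% and 77.2% in Tau tg 1, 2 and 3. Even so, none was among the leading miRNAs of these brains. By mean RPM they ranked 60, 62 and 75 of 782 miRNAs.

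miR-369-3p and miR-410-3p come from a large imprinted miRNA cluster, expressed from the maternal chromosome and active in brain. The hairpin of miR-369 lies at chr12:109743418-109743496 and that of miR-410 at chr12:109743715-109743795, both on the plus strand of GRCm38, 219 bases apart and both in exons of the lincRNA gene Mirg. miR-369-3p, the most abundant A/U-seed miRNA, was at 1554, 2406 and 2501 RPM in WT, against 1901, 2103 and 1881 RPM in Tau tg. The Tau tg samples were tightly grouped inside the wider range of WT. Its log2 fold change was -0.10 ± 0.31 (SE), with an adjusted limma p of 0.963.

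miR-410-3p was at 1525, 1950 and 1424 RPM in WT, against 1800, 1595 and 1045 RPM in Tau tg. The groups overlapped, although the lowest sample was Tau tg 3. Tau tg against WT, the log2 fold change was -0.17 ± 0.32 (SE), with an adjusted limma p of 0.944.

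miR-126a-5p is the less abundant strand of miR-126, the miRNA characteristic of endothelial cells, and its hairpin lies within Egfl7, an endothelial gene, at chr2:26591357-26591429 on the plus strand of GRCm38, overlapping an annotated exon of that gene. It was at 2164, 1830 and 1916 RPM in WT, against 2192, 1747 and 1802 RPM in Tau tg. The level was even over the 6 samples. The log2 fold change was -0.05 ± 0.30 (SE), with an adjusted limma p of 0.976. In bulk brain, fewer cells of a type and less RNA per cell cannot be told apart.

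miR-374b-5p derives from an intron of Ftx, a lincRNA gene of the X-inactivation centre, at chrX:103573060-103573154 on the minus strand of GRCm38. It was at 451, 266 and 239 RPM in WT, against 441, 295 and 290 RPM in Tau tg. The first sample of either group was about equally high, and the remaining 4 were about equally low. Its log2 fold change was 0.13 ± 0.40 (SE), with an adjusted limma p of 0.966, and its sign depended on the scaling, with -0.03 under median-of-ratios scaling.

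miR-340-5p lies in an intron of Rnf130, at chr11:50069702-50069799 on the plus strand of GRCm38. It was at 253, 250 and 307 RPM in WT, against 247, 402 and 385 RPM in Tau tg. Samples 2 and 3 of the latter group were above all WT samples, whereas its sample 1 was below them. Tau tg against WT, the log2 fold change was 0.32 ± 0.39 (SE), with an adjusted limma p of 0.896. Its most abundant read alone, printed above, did not overlap between groups, at 178, 171 and 185 RPM in WT, against 197, 303 and 212 RPM in Tau tg, with an adjusted limma p of 0.666.

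miR-344d-3p is encoded by 3 hairpin copies on chromosome 7, the first at chr7:61683124-61683192 on the minus strand of GRCm38, and its reads cannot be assigned to one copy. It was at 297, 203 and 89.0 RPM in WT, against 303, 323 and 247 RPM in Tau tg. The groups overlapped because WT 1 reached the Tau tg range, and WT 3, the shallowest sample, was the lowest. The log2 fold change was 0.72 ± 0.47 (SE), with an unadjusted limma p of 0.149 and an adjusted p of 0.896. Its size depended on single WT samples. Without WT 1 the log2 fold change was 1.10, with an unadjusted limma p of 0.046 and an adjusted p of 0.634, and without WT 3 it was 0.24, with an unadjusted limma p of 0.602.

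miR-590-3p and miR-32-3p were scarce. miR-590-3p was at 4.68, 19.7 and 36.7 RPM in WT, against 7.83, 12.5 and 23.3 RPM in Tau tg. The WT values spanned the whole Tau tg range. The log2 fold change of miR-590-3p was -0.20 ± 1.04 (SE), with an adjusted limma p of 0.972. miR-32-3p, with 61.4% of its RPM on an A/U-only seed, was at 1.41, 2.03 and 3.67 RPM in WT, against 4.13, 16.7 and 5.73 RPM in Tau tg. All Tau tg samples were above the WT samples, but the counts were 3, 3 and 4 reads in WT beside 29, 20 and 14 reads in Tau tg, and the adjusted limma p was 0.896. The miR-32-3p read printed above was seen in Tau tg 2 alone, at 10.9 RPM. miR-32-5p, the abundant strand of that hairpin, was at 406 RPM on average.

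Among mature miRNAs, none of the 8 had an unadjusted limma p under 0.05, where 3.63% of all 689 tested did. At an adjusted limma p of 0.05 the counts were 0 of 8 and 0% of all. edgeR and DESeq2 gave 0 of 8 at either threshold. Over all 689 miRNAs, 4.21% had an unadjusted p under 0.05 in edgeR and 5.37% in DESeq2. After adjustment edgeR called 0 miRNAs and DESeq2 called 5. Of the 8, 4 were higher and 4 lower in Tau tg, where 63.6% of all miRNAs tested were higher. The median log2 fold change was 0.04, beside 0.25 over all miRNAs. Under median-of-ratios scaling these medians were -0.12 and 0.09, so the direction of the members' median depended on the scaling. The groups did not overlap for 1 of 8, miR-32-3p, or 12.5%, beside 9.53% of the 472 miRNAs seen in all 6 samples.

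The opposite arms of the same hairpins are reads that the seed rule did not use. miR-126a-3p, the abundant arm, was at 7762, 6003 and 2370 RPM in WT, against 8383, 4479 and 7337 RPM in Tau tg. The 5p arm, which carries the A/U-only seed, therefore made up 21.8%, 23.4% and 44.7% of both arms in WT, against 20.7%, 28.1% and 19.7% in Tau tg. WT 3 was apart from the other 5 samples, through a low 3p arm and not a high 5p arm. The log2 ratio of the arms was -1.29 ± 0.85 (SD, n = 3) in WT, against -1.77 ± 0.36 (SD, n = 3) in Tau tg. The exact permutation p was 0.5, and without WT 3 the difference of -0.49 moved to 0.0054.

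For the miR-369 hairpin the A/U-seed arm was the abundant one, at 61.1%, 75.2% and 80.4% of both arms in WT, against 63.8%, 74.3% and 70.0% in Tau tg. The difference in log2 ratio was -0.24, with an exact permutation p of 0.7, and it became 0.066 without WT 3. For the miR-340 hairpin the A/U-seed arm made up 74.1%, 78.3% and 82.1% in WT, against 76.1%, 95.2% and 85.5% in Tau tg. The difference of 0.98 in log2 ratio had an exact permutation p of 0.3, and Tau tg 2 was far above the others. Leaving out that sample lowered the difference to 0.26, and leaving out Tau tg 1 raised it to 1.56. For the miR-590 hairpin the difference of 1.37 had an exact permutation p of 0.5 and was 0.19 without Tau tg 2. The adjusted p was at least 0.667 for each of the 4 hairpins. miR-410-5p was seen in WT 1 only, at 15.5 RPM, so that miR-410-3p held at least 99.0% of its hairpin in every sample. miR-374b-3p was not listed.

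Some A/U-only seeds arose by a shift of the 5′ end. For miR-369-3p, reads that began before the main start made up 4.85%, 5.29% and 6.60% in WT, against 6.77%, 6.56% and 8.90% in Tau tg. The ranges overlapped slightly. The share with the main start was 94.8%, 94.5% and 92.9% in WT, against 92.3%, 92.7% and 91.0% in Tau tg, so here the groups did not overlap. No test was run on these shares. For miR-126a-5p, reads that began after the main start made up 4.16%, 2.18% and 1.72% in WT, against 3.98%, 2.73% and 1.63% in Tau tg, with no order between the groups. For miR-410-3p the shorter form has the seed UAUAAC and so leaves the A/U-only group. Reads of this class made up 6.60%, 0.278% and 5.15% in WT, against 1.83%, 5.61% and 2.31% in Tau tg, a wider spread within each group than between the group means. For miR-410-3p, the class of reads that began before the main start and had no internal mismatch held 1 sequence. That class was at 1.01%, 0.0348% and 0.0644% in WT, against 0.00789%, 0% and 0% in Tau tg, and did not overlap. It had a mean of 2.87 RPM and the seed AAUAUA. All reads with this seed were at 13.6 RPM on average, with 78.6% from miR-410-3p. The class shares therefore leave out most miR-410-3p reads with that seed, and do not give the full level of earlier starts.

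The 3′ ends differed between these miRNAs. Bases that are not in the RefSeq hairpin were found at the 3′ end of 28.3%, 20.7% and 19.6% of miR-126a-5p reads in WT, against 25.5%, 30.8% and 28.0% in Tau tg. Tails of U only made up 14.6%, 11.4% and 9.57% in WT, against 15.5%, 16.4% and 16.0% in Tau tg, so the Tau tg samples lay above the WT samples. Tails of A only made up 12.7%, 7.52% and 8.33% in WT, against 9.43%, 14.0% and 11.5% in Tau tg, and overlapped. For miR-374b-5p the order was the other way. Tails of any base not in the hairpin made up 5.72%, 7.91% and 4.98% in WT, against 3.90%, 0.850% and 3.53% in Tau tg. Nearly all of these were tails of A only, at 5.41%, 7.65% and 4.98% in WT, against 3.29%, 0.567% and 3.39% in Tau tg, so both shares were lower in all Tau tg samples. Of 60 such shares of starts, tails and seeds over 6 miRNAs, many of them parts of one another, 5 did not overlap between the groups. Those 5 are all given here. Among all 5832 sequences above 0 in all 6 samples, 9.31% did not overlap, so the 5 of 60 are not read as a change. These shares were read after the values were seen and were not tested.

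miR-369-3p and miR-410-3p carried tails of A and hardly any of U. For miR-369-3p, tails of A only made up 6.33%, 3.29% and 8.91% in WT, against 6.48%, 9.07% and 9.55% in Tau tg. For miR-410-3p they made up 3.62%, 4.27% and 7.02% in WT, against 4.11%, 7.50% and 4.03% in Tau tg. miR-344d-3p was the reverse, with U tails at 13.1%, 1.0% and 5.16% in WT, against 14.7%, 1.04% and 8.46% in Tau tg and no A tail. The spread of those U tails within each group was larger than any difference between groups.

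One member passed an unadjusted limma p of 0.05 at the level of sequences. It was the miR-410-3p read with an added A, printed above, at 37.5, 2.03 and 39.4 RPM in WT, against 1.71, 1.67 and 1.64 RPM in Tau tg. WT 2 was near the Tau tg samples, which means that the difference rested on WT 1 and WT 3, with 80 and 43 reads beside 3 in WT 2 and 12, 2 and 4 in Tau tg. Its log2 fold change was -2.65 ± 1.07 (SE), with an unadjusted limma p of 0.013 and an adjusted p of 0.584. Without WT 1 the unadjusted limma p was 0.119, and without WT 3 it was 0.121. The sum of all A tails of miR-410-3p, given above, overlapped between the groups.

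That was 1 of 244 members tested, or 0.410%, whereas 2.23% of all 36070 sequences had an unadjusted limma p under 0.05. At an adjusted p under 0.05 there was no member, beside 0.0277% of all sequences. At an unadjusted p under 0.05, edgeR on the recovered reads gave 3 members, or 1.23%, beside 7.11% of all sequences, and DESeq2 gave 5, or 2.05%, beside 9.27%. After adjustment neither called a member. DESeq2 gave an adjusted p for 40 of the 244 members, the smallest being 0.058, and edgeR for all 244, the smallest being 0.277. The median log2 fold change was -0.27 over the 244 members and -0.16 over all sequences, with 103 members higher and 141 lower in Tau tg. The members were higher in 42.2% of cases, beside 47.3% of all sequences. Among the 63 members above 0 in all 6 samples, 5 did not overlap between the groups, or 7.94%, beside 9.31% of all 5832 such sequences.

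These 5 were the mir-374 variant and the miR-410-3p read with an added A, both lower in Tau tg, the main miR-340-5p read, higher, and a read each of miR-126a-5p and miR-344d-3p. The miR-126a-5p read, the shorter 5′ form with an added 3′ A, was at 7.03, 19.0 and 4.59 RPM in WT, against 2.28, 3.35 and 0.818 RPM in Tau tg. The 21-nt miR-344d-3p read, which ends 1 base before the main one, was at 21.5, 21.7 and 3.67 RPM in WT, against 30.0, 32.6 and 45.8 RPM in Tau tg. Both had an adjusted limma p of 0.584.

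Another 15 miRNAs had an A/U-only seed in a minority of their reads, at 26.6 RPM in all. miR-190a-3p came closest to the 50% limit, with 42.8%, since its main seed is CUAUAU and a shift by 1 base gives UAUAUA. The A/U-only reads of miR-190a-3p were at 0, 2.71 and 1.84 RPM in WT, against 2.13, 38.5 and 7.77 RPM in Tau tg, and the highest value was in Tau tg 2 alone. miR-124-3p, the main neuronal miRNA, had an A/U-only seed in 0.0075% of its reads, or 5.15 RPM. miR-325-3p, miR-543-3p and miR-106b-5p followed at 3.34, 2.25 and 1.39 RPM, and most of the 15 were at 0 in several samples.

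The 310 members without a mature miRNA name summed to 457 RPM on average. Of these, 214 were seen in a single sample and none of those exceeded 31.8 RPM. By sequence, 61 of the 310 differed by at most 1 base changed, added or lost from a read of the 8 A/U-seed miRNAs, and 56 of these 61 were annotated as hairpin reads. They were at 111, 94.2 and 125 RPM in WT, against 77.7, 92.0 and 68.7 RPM in Tau tg. The WT samples were above the Tau tg samples, by a small step between WT 2 and Tau tg 2, in a set that was put together after the values were seen and was not tested. The set was not examined apart from the mir-374 variant. Reads that begin as that variant were at 103, 67.8 and 74.3 RPM in WT, against 21.8, 64.4 and 41.3 RPM in Tau tg. Their group means differed by -39.1 RPM and those of the set by -30.5 RPM, so the set should not be read as a separate result. The remaining non-miRNA members lay mostly at the level of a few reads.

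mRNA-annotated members held 3.07%, 5.73% and 4.85% of the members' RPM in WT, against 1.95%, 3.05% and 4.13% in Tau tg, and the groups overlapped. rRNA-annotated members ranged from 0 to 69.7 RPM per sample, with each of the 14 seen in 1 sample only. tRNA-annotated members reached at most 18.3 RPM and piRNA-annotated members at most 16.4 RPM. These classes differed more between single mice than between WT and Tau tg.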

How the data were processed

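Ago-bound short RNAs of 6 mouse brains, 3 WT and 3 Tau tg, were measured by small RNA sequencing after gel selection. The authors trimmed the reads (Trim Galore, per the labels), compiled unique sequences with the SPOROS pipeline, removed rare and artificial reads, and annotated them by BLAST. mRNA names refer to mm9 and no coordinates were taken from them. The deposited values are RPM as scaled by the authors. All were whole multiples of 1 read (100% of values, within 0.1 read), and 998248 to 6879551 reads per sample were recovered. Viability is a deposited score per seed. PCR copies cannot be told from molecules, so intervals and levels of 3 reads cover counting error only. The column of totals was not used.

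Members and lists were chosen with earlier results of these data known. Groups came from the titles. Summary measures were compared by an exact two-sided permutation test over 20 assignments, and members with other reads by sign flips over 64 assignments, each with Benjamini-Hochberg adjustment. Sequences, seeds and miRNAs were each fitted over the whole table on log2(RPM + 1) by limma 3.58.1, its mean-variance trend included, where the mean reached 1 RPM. Fold changes on this scale understate those of low rows. Recovered reads were refitted with DESeq2 1.42.0 and with edgeR 4.0.16. Over all sequences limma called 10, edgeR 49 and DESeq2 459 at an adjusted p under 0.05. Steps were tested on simulated data. Software was Python 3.11.15 with SciPy 1.17.1, pandas 2.3.3 and NumPy 2.4.6, and R 4.3.3. Hairpins and positions are RefSeq's on GRCm38.p6, with GENCODE M21 genes. Reads were compared with the hairpin for 5′ starts within 4 bases and 3′ tails of up to 3 bases.

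The text names the 10 most and 5 least abundant seeds, the 3 seeds at each end of the viability scale, all 8 miRNAs with at least 50% of RPM on an A/U-only seed, the 5 leading miRNAs with a minority of such reads, and the most abundant non-miRNA reads. Sequences without overlap between groups were named after their values were seen, as were shares of tails and of shifted starts. Each sample is 1 mouse, and p-values measure the spread between these mice. Unadjusted p-values are given because few rows passed adjustment.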

Additional observations from a re-analysis of the deposited data

How the results depend on the processing

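The results rested on few mice and few miRNAs. With 3 mice a group, the smallest exact permutation p between WT and Tau tg was 0.1, the deepest sample held far more reads than the shallowest, and low seeds rested on a few reads each.

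No member miRNA, seed or sequence passed an adjusted p under 0.05 in limma, edgeR or DESeq2, or under any other alternative, but DESeq2 gave an adjusted p for 40 of the 244 sequences, 22 of the 56 seeds and all 8 miRNAs. The number of members at an unadjusted p under 0.05 moved between 0 and 5 of the sequences. It was 1 in the limma fit, 4 with a pseudocount of 0.1 RPM, 3 with no filter, 0 with a mean of at least 10 RPM, 2 with median-of-ratios scaling, 3 with edgeR, 5 with DESeq2, and 1 to 3 with 1 sample left out. For seeds, 4 were called by limma without trend and 0 to 1 with 1 sample left out, and for miRNAs 0 to 1 with 1 sample left out. The shares over all rows given above are those of the limma fit, edgeR and DESeq2. Counts under the other settings have no such share beside them and are not read as a result about the members.

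The difference in weighted mean viability turned to -0.17 without the most abundant seed and lay between -0.35 and 0.37 with 1 sample left out. The difference in first-base U share turned to 0.077 with reads of 19 to 25 nt and lay between -0.80 and 0.92 with 1 sample left out. With 1 sample left out, the change in the share of reads ran from -0.090 to -0.027 percentage points, that in the share of sequences from -0.074 to -0.012, that in the miRNA share from 1.04 to 2.43, and that in the mean length from 0.037 to 0.0997 nt. The share of reads changed by -0.033 with the authors' full RPM total as the denominator and by -0.028 without the most abundant seed. The arm ratio difference ran from -0.63 to 0.066 for miR-369, -0.76 to 0.0054 for miR-126a, 0.26 to 1.56 for miR-340 and 0.19 to 2.04 for miR-590. With 1 sample left out, the comparisons of members with other reads cannot give an exact permutation p below 0.0625, and the differences ranged from 5.70 to 6.89 percentage points for the miRNA share, -2.79 to -2.06 for the mRNA share, -61.6 to -60.6 for the first-base U share and -0.41 to -0.38 nt for the length. Among single miRNAs, the log2 fold change of miR-374b-5p was -0.028 with median-of-ratios scaling, -0.016 with quantile normalization and -0.042 with DESeq2, and that of miR-32-3p was -0.048 with quantile normalization. With 1 sample left out, it ran from -0.32 to 0.019 for miR-369-3p, -0.15 to 0.024 for miR-126a-5p, -0.33 to 0.067 for miR-410-3p, -0.064 to 0.41 for miR-374b-5p, 0.20 to 0.55 for miR-340-5p, 0.24 to 1.10 for miR-344d-3p, 0.86 to 1.75 for miR-32-3p and -0.97 to 0.40 for miR-590-3p. Median-of-ratios scaling moved the median log2 fold change over all seeds by 0.21 and over all miRNAs by -0.15. The cause of these changes was not tested.

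The replicate numbers in the labels did not pair the mice. Correlations of same-numbered samples' deviations were -0.069 to 0.041, and not every sample correlated best with its own number. With a replicate block, 2 member sequences had an unadjusted limma p under 0.05, and no seed or miRNA did, again with no share over all rows beside these counts.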
